A study of Mus musculus with 6 samples.

Results

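T cell co-signalling and inhibitory ligands are surface or secreted proteins through which a neighbouring cell tunes the response of a T cell to antigen. The 10 genes described here are Cd274, Pdcd1lg2, Cd80, Cd86, Cd40, Icosl, Tnfrsf14, Cd200, Cd276 and Lgals9. They were chosen by name, and every probe set that the platform table assigns to 1 of them alone was taken, which gave 17 probe sets. The array as a whole had 18193 genes with a probe set of their own and 45037 probe sets that are not controls. RNA came from endothelial cells of C57BL/6 mice aged 6 weeks. The nodes of the skin and the mesentery were pooled, digested and depleted of CD45+ cells, and live CD45- cells were sorted by gp38 and CD31. Each of the 6 arrays was hybridized with RNA amplified linearly in 2 rounds from 20 ng. 3 arrays carry the label Double positive with the cell type word BEC, and 3 carry the label CD31+ with the cell type word LEC. The study sorted LEC as gp38+ CD31+ cells, so within each label the gate and the cell type point to opposite groups. Arrays were grouped here by the gate, and differences are given in log2 units as double positive minus CD31+. Read by the cell type word, a difference between LEC and BEC would have the opposite sign throughout. The marker genes given below followed the gate word. A sorted group can hold several kinds of endothelial cell, and fewer cells of a kind and less RNA per cell cannot be told apart in such samples.

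A T cell that meets antigen needs a further signal to become fully activated, and the balance of activating and inhibitory ligands on the presenting cell sets whether it expands, stays silent or dies. CD80 and CD86 engage CD28 and CTLA-4, and ICOSL engages ICOS. PD-L1 and PD-L2, encoded by Cd274 and Pdcd1lg2, engage the inhibitory receptor PD-1. CD40 receives a signal from CD40L on activated T cells, HVEM (Tnfrsf14) binds BTLA and CD160, and CD200 binds an inhibitory receptor found mostly on myeloid cells. Lymph node LEC are known for inducing deletion of CD8 T cells through PD-L1.

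The gate word matched the RNA of gp38, and that of CD31 could not be read. Pdpn, which encodes gp38, had log2 values of 7.28 to 8.32 in the double-positive arrays and 3.29 to 3.75 in the CD31+ arrays, a difference of 4.07 (limma adjusted p = 0.0428). For Pecam1, the gene of CD31, values stayed between 2.39 and 2.59 on every array, near the floor of 2.39 that all values share, so it gives no check of the CD31 gate. Of 9 lymphatic markers and 9 blood endothelial markers measured, 6 of the former passed as higher and 6 of the latter as lower (1.06% and 0.225% of all genes). At a limma p under 0.05 without adjustment, 9 lymphatic markers were higher and 8 blood endothelial markers lower (14.4% and 2.44% of all genes). None of either list went the other way at that threshold. By these markers the double-positive arrays carried the lymphatic profile, as the gate word and not the cell type word implies. Of all probe sets, those that reached a log2 value of 5 made up 13.8% to 14.7% of each double-positive array and 10.7% to 12.6% of each CD31+ array. The median difference was 0.73 over genes whose mean reached 5, against 0.00 over all 18193 genes. Subtracting each array's median over such bright probe sets, here called centring, lowers every difference by 0.68. Differences of about that size, and the sign of smaller ones, therefore depend on the scaling. The hybridization controls, RNAs added to each sample, had a median log2 value of 10.03 to 10.99 in the double-positive arrays and 11.56 to 12.14 in the CD31+ arrays, without overlap, and their part in the differences was not tested.

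Of the 10 ligands, Cd200 was lower and Cd40 and Cd274 were higher in the double-positive arrays without overlap between the groups, and the other 7 were dim, under 4 on every array. Over all genes, 3.42% lay lower and 16.9% higher without overlap at their brightest probe set. None of the 3 differences passed the test over the whole array. Limma called 0 of the 10 genes higher and 0 lower at 5% FDR, where 1.06% of all genes were called higher and 0.225% lower. Without adjustment, at p under 0.05, Cd40 was higher (1 gene, against 14.4% of all genes) and Cd200 lower (1 gene, against 2.44%). The median difference of the 10 genes was -0.03, and it was -0.71 with centred arrays. With 3 arrays a group, the smallest two-sided p of an exact permutation test that ignores replicate number is 0.1.

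**Figure D1:**
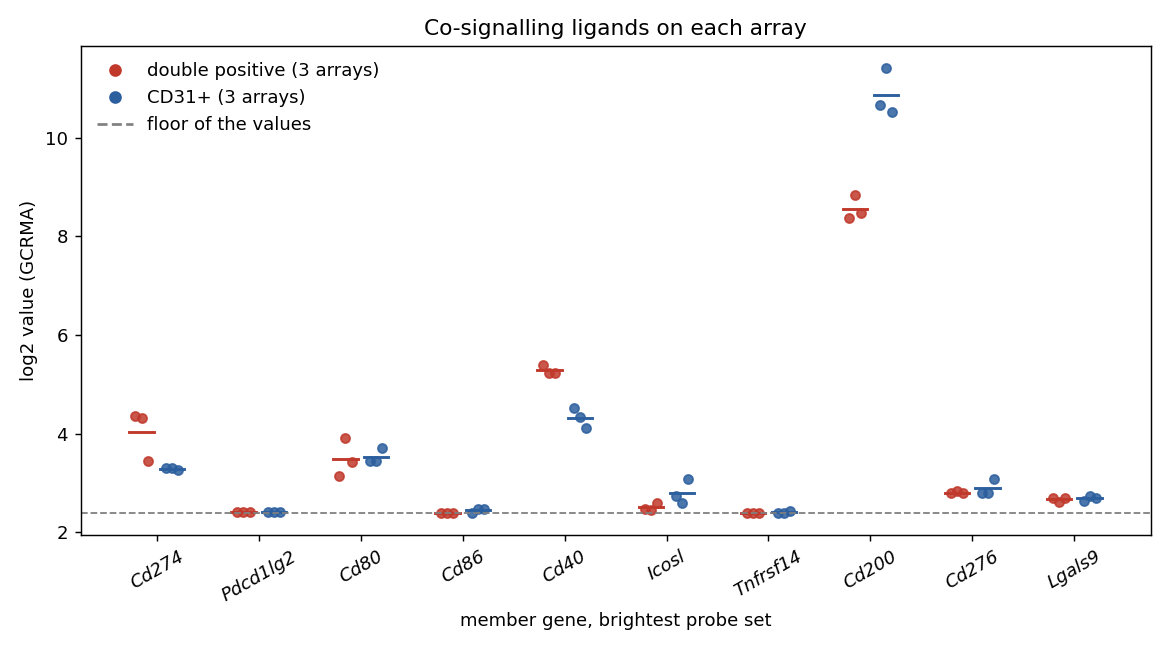
Log2 values (GCRMA) of the 10 ligand genes, each at its brightest probe set, by array. Each point is 1 array (3 a group), short bars are group means, and the dashed line is the floor of the values at 2.39. Cd200 lies lower in the double-positive arrays, Cd40 and Cd274 lie higher, and the other genes lie under 4, with Pdcd1lg2, Cd86 and Tnfrsf14 at the floor line. Heights of different genes come from different probes and are not comparable.

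Cd200 was the bright member. It encodes a membrane glycoprotein of the immunoglobulin superfamily that is found on endothelium, neurons and lymphocytes and delivers an inhibitory signal through CD200R1. Its only probe set had log2 values of 8.38, 8.84 and 8.47 in double-positive replicates 1 to 3 and of 10.66, 11.41 and 10.53 in CD31+ replicates 1 to 3. The groups did not overlap, and the highest value of each group was on its array numbered 2. The means, 8.56 ± 0.242 (SD, n = 3) and 10.87 ± 0.478 (SD, n = 3), differed by -2.30 (standard error 0.296, 95% interval -3.10 to -1.51), which is 4.94-fold lower on the linear scale. The difference was -2.28, -2.58 and -2.06 in the pairs numbered 1, 2 and 3. Limma gave an unadjusted p of 0.00103 and an adjusted p of 0.0807, and 87 of the 18193 genes had a difference as low or lower. Over the probe sets kept by a filter on dim signals (3 or more arrays with a log2 value of 5 or above) the adjusted p was 0.00109 from limma, in a fit that called 4.34% of the kept genes lower. With centred arrays in that fit the difference was -2.98 (limma adjusted p = 5.82e-05), where 10.3% of the kept genes were called lower and 13.9% higher. When replicate number was added to the filtered fit as a block, Cd200 was called as well (limma adjusted p = 8.63e-05), with 5.25% of the kept genes called lower and 49.2% higher. Cd200 was above 5 on all 6 arrays, so the filter kept it in either group. Cd200r1, the gene of its receptor, stayed close to the floor, at 2.46 and 2.41.

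Cd40 encodes a receptor of the TNF receptor family that is found on B cells, myeloid cells and endothelium and, when engaged by CD40L, raises adhesion molecules and co-stimulatory ligands. At its brightest probe set the log2 values were 5.40, 5.22 and 5.22 in the double-positive arrays and 4.51, 4.33 and 4.11 in the CD31+ arrays. All 3 double-positive arrays lay above all 3 CD31+ arrays. The difference was 0.96 (standard error 0.124, 95% interval 0.63 to 1.29), from 5.28 ± 0.103 (SD, n = 3) and 4.32 ± 0.198 (SD, n = 3), with an adjusted p of 0.0806 from limma. A second probe set had 4.80, 5.67 and 4.67 against 3.63, 3.44 and 3.60, again without overlap. Its difference was 1.49 (standard error 0.305, 95% interval 0.67 to 2.31, limma adjusted p = 0.199). The third had its floor value of 2.39 on 5 of the 6 arrays and 2.53 on the other, and shows no difference that could be read. With centred arrays the brightest and the second probe set differed by 0.28 and 0.81, so the direction was kept but most of the first difference was not. The filter kept the brightest probe set only because the 3 double-positive arrays exceeded 5, so its adjusted p there (0.0241 from limma, in a fit that called 36.0% of the kept genes higher) carries that choice. With the filter and centred arrays the adjusted p was 0.456 from limma. Both probe sets carry the suffix s, which marks probes that may match more than 1 transcript.

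Cd274 encodes PD-L1, the ligand through which node LEC delete CD8 T cells, and it was dim on these arrays. The study stained PD-L1 protein at intermediate or high levels on node LEC, so dim RNA values here do not show its absence. Its only probe set had log2 values of 4.36, 4.31 and 3.45 in the double-positive arrays and 3.29, 3.29 and 3.27 in the CD31+ arrays. The groups did not overlap, but double-positive replicate 3 lay within 0.2 of the CD31+ arrays, and the values of CD31+ replicates 1 and 2 were identical to all deposited digits. The means, 4.04 ± 0.511 (SD, n = 3) and 3.28 ± 0.0145 (SD, n = 3), differed by 0.76 (standard error 0.283, 95% interval -0.0040 to 1.52, limma adjusted p = 0.561). Without double-positive replicate 3 the difference was 1.05 (limma adjusted p = 0.0135), and without any other array it was 0.60 to 0.76 and did not pass. With centred arrays it was 0.08. No array reached 5, so the filter removed this probe set, and no test of it was made there. Pdcd1lg2, which encodes PD-L2 and is the next protein-coding gene to Cd274 on chromosome 19, lay within 0.1 of the floor on all 6 arrays. It had 2.40 on 5 arrays and 2.41 on double-positive replicate 3.

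**Figure D2:**
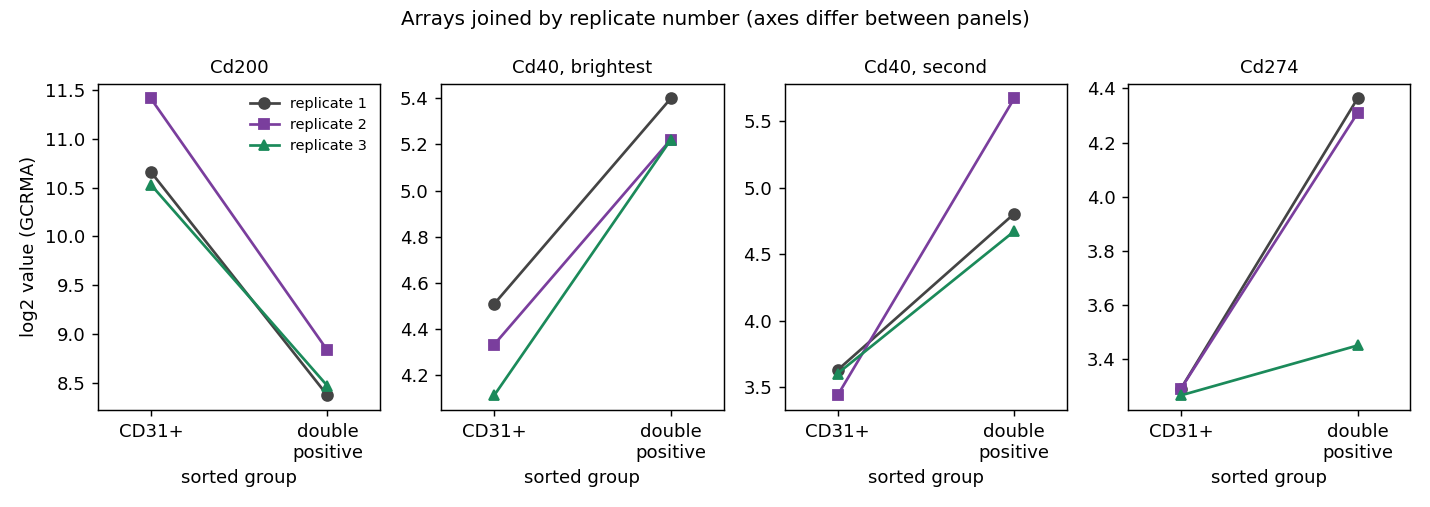
Log2 values (GCRMA) of Cd200, of Cd40 at its brightest and second probe sets, and of Cd274, with CD31+ and double-positive arrays of the same replicate number joined by a line. The vertical axes differ between panels and do not start at 0. Each of the 3 lines falls for Cd200 and rises for the other probe sets, with a small step for Cd274 in replicate 3.

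As a description only, the bright probe sets with the values most like those of Cd274 over the 6 arrays, each centred on its own mean, were those of Rilpl1, Cnp, Hprt and S100a6, at Euclidean distances of 0.164, 0.217, 0.242 and 0.277 in log2 units among 5179 probe sets compared. For Cd40, the member with the smallest adjusted p, they were those of Wdr26, Zfand6, Acap2 and Usp6nl, at 0.171 to 0.190. All of these lay higher in the double-positive arrays, by 0.74 to 1.02, close to the median of 0.73 over bright genes.

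The stretches of 250 bases before the annotated start of Cd200 and of Cd274 are shown because Cd200 was the member that differed most and Cd274 encodes the ligand the study followed. They are from RefSeq (GRCm38.p6), written 5′ to 3′ along the gene, with the GC box GGGCGG, a site of the Sp family of factors, in capitals. The Cd200 stretch is chr16:45409054-45409303 on the minus strand, and the Cd274 stretch is chr19:29367188-29367437 on the plus strand.
Cd200: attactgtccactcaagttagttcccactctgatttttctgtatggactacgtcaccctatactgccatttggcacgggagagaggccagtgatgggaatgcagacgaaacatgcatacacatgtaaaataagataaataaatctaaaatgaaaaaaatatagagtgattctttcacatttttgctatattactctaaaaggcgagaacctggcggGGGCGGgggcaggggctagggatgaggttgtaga
Cd274: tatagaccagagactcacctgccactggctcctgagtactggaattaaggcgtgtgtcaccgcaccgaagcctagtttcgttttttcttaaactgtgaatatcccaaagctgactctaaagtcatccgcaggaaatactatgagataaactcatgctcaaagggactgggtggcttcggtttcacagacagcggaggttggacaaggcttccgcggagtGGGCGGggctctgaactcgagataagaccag
Each stretch holds 1 GC box, which starts 34 bases before the start of Cd200 and 31 before that of Cd274. Of the 10 members 8 are in the promoter table, and 4 of these held the box in this window, on either strand, as did 32.7% of all 32851 promoters. The interferon-gamma site TTCNNNGAA was found in 0 of the 8 (7.02% of all promoters), the 10-letter kappaB motif in 0 (1.41%), and the 10-letter interferon-stimulated response element in 2, Tnfrsf14 and Lgals9 (2.98%). A match or its absence describes these letters in this window only.

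The ligands of CD28, CTLA-4 and ICOS were dim in both groups, Cd86 near the floor and Cd80 above it at 1 of its probe sets. Cd80, on activated antigen-presenting cells, had 4 probe sets, of which the brightest had 3.14, 3.92 and 3.42 in the double-positive arrays and 3.44, 3.44 and 3.71 in the CD31+ arrays. These overlap, and the difference of -0.04 had a 95% interval of -0.67 to 0.59. Another probe set of Cd80 was identical on all 6 arrays, at 2.39, and the others differed from their commonest value by over 0.1 on 1 array each, CD31+ replicates 2 and 3. Cd86 had 2.39 on the 3 double-positive arrays and 2.39, 2.47 and 2.46 on the CD31+ arrays at one probe set, and 2.41 on all arrays at the other. The difference at the first was -0.05 (95% interval -0.11 to 0.01), and it passed without CD31+ replicate 1, at -0.07 (limma adjusted p = 0.0451). Icosl had 2.47, 2.46 and 2.60 against 2.73, 2.60 and 3.08, a difference of -0.30 (95% interval -0.68 to 0.09). Double-positive replicate 3 and CD31+ replicate 2 shared a value there, and the other probe set of Icosl had 2.46 on all arrays but CD31+ replicate 3, at 2.90.

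Cd276, Tnfrsf14 and Lgals9 were likewise dim. Cd276, which encodes B7-H3, a ligand whose receptor is not settled, had 2.79 to 2.82 in the double-positive arrays and 2.79 to 3.08 in the CD31+ arrays, a difference of -0.09 (95% interval -0.34 to 0.17). Tnfrsf14, which encodes HVEM, was at the floor of 2.39 on 5 arrays and at 2.43 on CD31+ replicate 3. Lgals9, which encodes galectin-9, a lectin that binds TIM-3, had 2.62 to 2.70 against 2.64 to 2.74, a difference of -0.02 (95% interval -0.12 to 0.09). In all, these 7 genes had 12 probe sets, no value above 3.92 and no difference beyond 0.30 in size. Pdcd1lg2, Cd86 and Tnfrsf14 lay within 0.1 of the floor on all arrays, so their narrow intervals reflect values held there. Intervals of dim genes do not bound a difference in RNA below what the array can detect. Of the 17 member probe sets, 13 had a value that recurred on several arrays to all deposited digits, as did 75.1% of all probe sets tested.

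**Figure D3:**
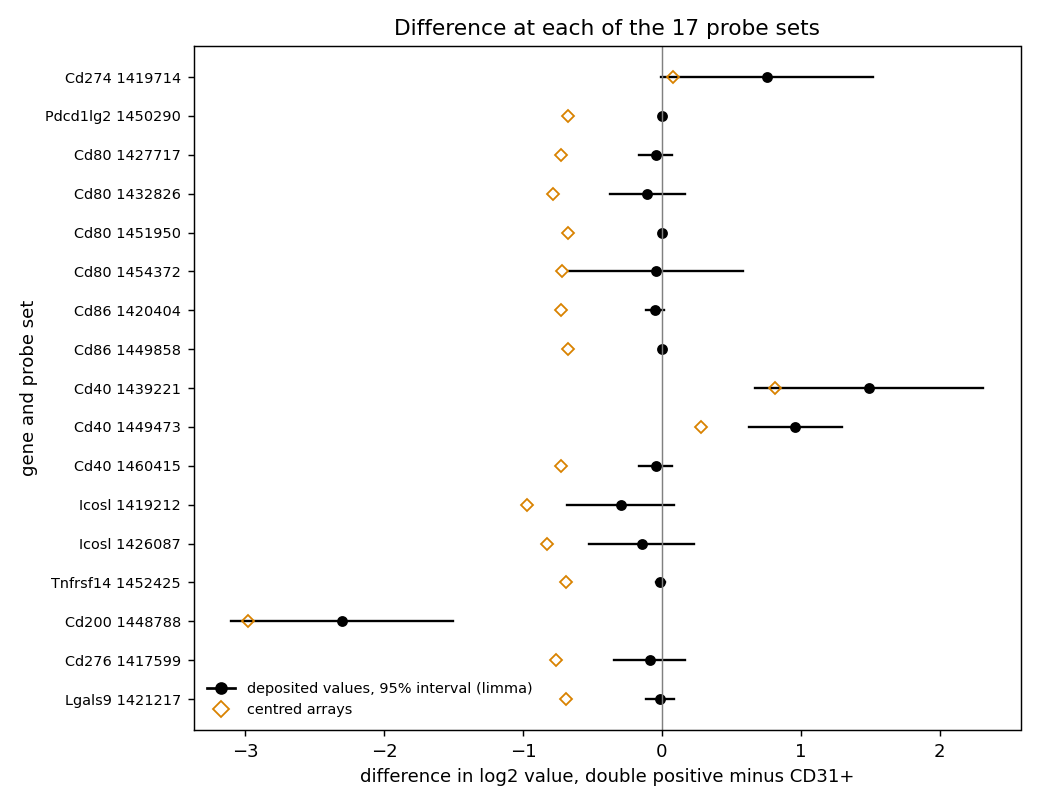
Difference in log2 value, double positive minus CD31+, at each of the 17 probe sets of the 10 ligands, labelled by gene and probe set number. Black points and lines are the deposited values with their 95% interval from limma, and open diamonds are the differences with centred arrays, 0.68 lower throughout. Cd200 lies below 0 under both scalings, and 2 of the Cd40 probe sets lie above 0 under both. Diamonds of probe sets at the floor show the shift alone.

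Among 18 other measured ligands and surface proteins of this kind, 1 passed as higher and 0 as lower (1.06% and 0.225% of all genes). Cd24a, a small glycoprotein reported to co-stimulate T cells, had 11.37, 11.01 and 11.22 in the double-positive arrays and 8.36, 8.48 and 7.84 in the CD31+ arrays at the probe set that passed, and so differed by 2.98 (limma adjusted p = 0.0309). Its brightest probe set differed by 1.92 (limma adjusted p = 0.149). Clec4g, which encodes LSECtin, a C-type lectin of sinusoidal endothelium that restrains T cells, had 9.21, 8.88 and 9.17 against 5.97, 2.88 and 4.96. The CD31+ arrays spread widely, and the difference of 4.48 (95% interval 2.12 to 6.84) had an adjusted p of 0.182 from limma. Its other probe set stayed at 2.40 to 2.52 on all arrays. Vsir, which encodes VISTA, an inhibitory ligand of the B7 family, had 10.23, 8.89 and 9.73 against 7.86, 7.34 and 7.20, a difference of 2.15 (limma adjusted p = 0.181). The other probe set of Vsir differed by 0.90, or by 0.22 with centred arrays. Nectin2, a ligand of TIGIT and CD226, differed by 2.38 (limma adjusted p = 0.224), and at its other probe set by 1.06 with overlap between the groups. Nectin3, its adhesion partner, differed by -1.21 (limma adjusted p = 0.329). With the filter, which kept 7 of the 18, Cd24a, Clec4g, Vsir, Nectin2 and Lgals1 passed as higher and Nectin3 as lower. That fit called 36.0% of the kept genes higher and 4.34% lower. Nectin3 reached 5 on CD31+ arrays only. Clec4g and Nectin2 reached 5 on 4 arrays each, which included all 3 double-positive ones. The filter thus kept these genes through the group where they were high, and their filtered results carry that choice. Centring after the filter gave 5 higher and 2 lower, Pvr joining Nectin3. Without adjustment 5 were higher and 2 lower at p under 0.05, against 14.4% and 2.44% of all genes. The remaining ligands included Vtcn1, Cd70, Tnfsf14, Cd48, Btnl2 and Cd83, which lay within 0.1 of the floor on every array, and 10 of the 18 stayed under 3. The median difference over the 18 was 0.00.

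**Figure D4:**
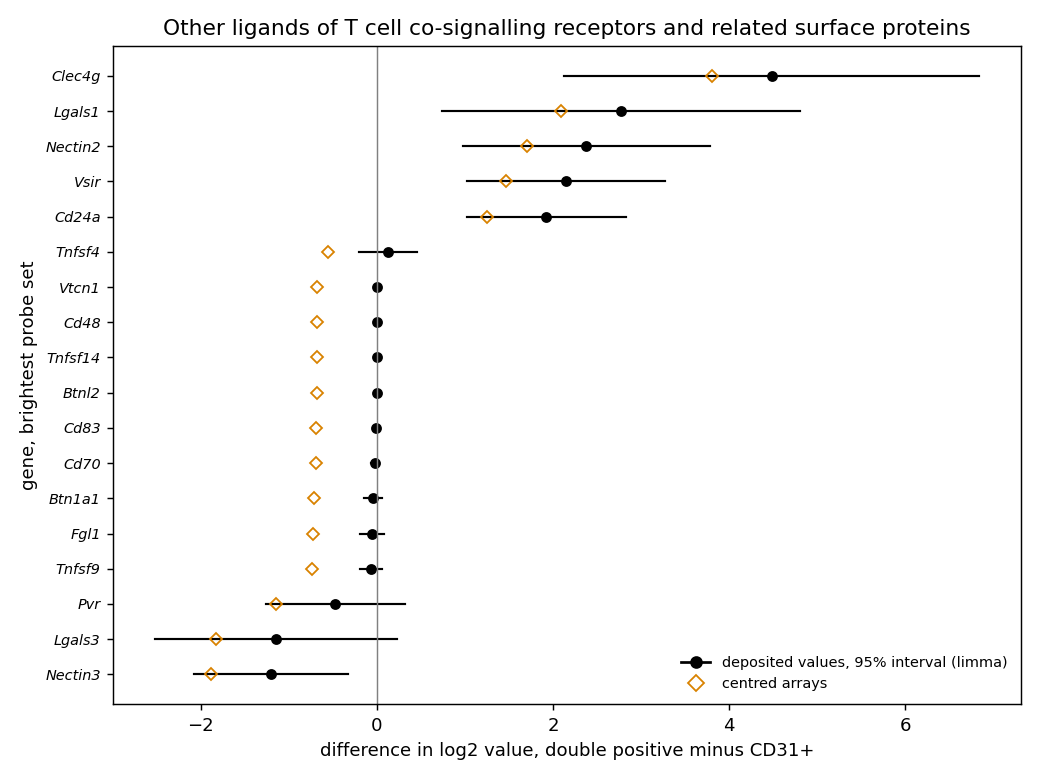
Difference in log2 value, double positive minus CD31+, of 18 further ligands and surface proteins at their brightest probe sets. Black points and lines are the deposited values with their 95% interval from limma, and open diamonds are centred arrays. Clec4g, Lgals1, Nectin2, Vsir and Cd24a lie above 0 under both scalings. Nectin3, Lgals3, Pvr and several dim genes lie below 0 under both.

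Limma called 0 of 8 other galectin genes (1.06% of all genes higher and 0.225% lower), among them Lgals1 and Lgals3 of the 18 above. At p under 0.05 without adjustment, 2 were higher and 0 lower (14.4% and 2.44% of all genes). Lgals1, which encodes galectin-1, a lectin that can induce death of activated T cells, had 10.88, 10.75 and 9.81 in the double-positive arrays and 7.40, 9.06 and 6.66 in the CD31+ arrays. The difference was 2.77 (limma adjusted p = 0.336), and with the filter it passed (limma adjusted p = 0.00805). Lgals8 differed by 0.88 (limma adjusted p = 0.322), or by 0.21 with centred arrays. Lgals3 had 2.68 to 2.69 in the double-positive arrays and 4.08, 4.60 and 2.80 in the CD31+ arrays, a difference of -1.15 (limma adjusted p = 0.659).

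Of 10 other genes by which cells restrain T cells, 0 passed as higher and 1 as lower (1.06% and 0.225% of all genes). Entpd1, which encodes CD39, the ectoenzyme that begins the breakdown of extracellular ATP toward adenosine, had 3.29, 2.88 and 2.92 in the double-positive arrays and 8.16, 7.90 and 6.88 in the CD31+ arrays. Its difference was -4.62 (standard error 0.394, limma adjusted p = 0.0415), and its other probe sets differed by -2.21 and -1.19 and did not pass. Nt5e, which encodes CD73, the next enzyme of that pathway, was dim, with a difference of -0.47 (limma adjusted p = 0.55). Cd47, a signal against phagocytosis, differed by 1.33 (limma adjusted p = 0.291), and by 0.65 with centred arrays. Ido1 had 2.51 and 2.80, Arg1 2.40 in both groups and Fasl 2.53 and 2.39, all near the floor, and Tnfsf10, which encodes TRAIL, had 5.83 and 5.59.

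The genes of the receptors that T cells use for these ligands were dim. Of 17 measured, including Pdcd1, Cd28, Ctla4, Icos, Cd40lg and Btla, limma called 0 in either direction (1.06% higher and 0.225% lower of all genes). It was also 0 at p under 0.05 without adjustment (14.4% and 2.44% of all genes), and no value of these receptor genes exceeded 3.25. At p under 0.05 without adjustment, 4 of 19 measured genes that act upstream of PD-L1 or downstream of CD40 were higher and 0 lower (14.4% and 2.44% of all genes). At 5% FDR 1 of them passed as higher and 0 as lower (1.06% and 0.225% of all genes). The 1 was Jak1, a kinase of interferon receptors, with 7.29, 6.71 and 7.13 against 4.91, 5.12 and 4.88 at the probe set that passed, which differed by 2.07 (limma adjusted p = 0.0433). The brightest of its probe sets differed by 2.27 (limma adjusted p = 0.0671). Jak2 differed by 0.44 and Ifngr2 by 0.45, and both were below 0 with centred arrays, at -0.23 each. Irf1, a factor that drives Cd274, had 7.98 and 7.57 (limma adjusted p = 0.659). Among surface markers the study stained on LEC, Icam1 had 9.86 to 10.17 and 9.25 to 10.53, Madcam1 had means of 7.45 and 7.30, and Ltbr had 2.64 in both groups, and none of these passed. Ltbr was near the floor, while the study stained its protein on most node LEC, so its RNA value does not show absence. Lyve1 passed, at 11.08 against 5.76 (limma adjusted p = 0.0111). With the block on replicate number, limma called 0 genes of any of these lists over all probe sets, in a fit that called 0.0220% of all genes higher and 0.00% lower. Tyr, the antigen gene the study followed, had 2.63 and 2.51, near the floor. The study measured Tyr RNA in node LEC by qPCR, so these array values do not show its absence.

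Most markers of the hematopoietic cells in which Cd80, Cd86 and Cd40 are best known were dim, though Marco reached 8.36. Of 17 measured genes of dendritic cells and macrophages limma called 0 (1.06% of all genes higher and 0.225% lower). At p under 0.05 without adjustment, 3 were higher and 0 lower (14.4% and 2.44% of all genes). Itgax, Flt3, Xcr1, Cd68, Siglec1 and Ccr7 lay within 0.1 of the floor on every array. The mean log2 value over the list was 2.99 to 3.06 in the double-positive arrays and 2.62 to 2.83 in the CD31+ arrays. Marco had 8.36, 6.16 and 8.12 against 2.88 on all 3 CD31+ arrays, and Cd14 had 4.90, 5.20 and 4.91 against 3.31, 3.32 and 2.70, the same direction as Cd40. Ptprc, which encodes CD45, had 2.53, 2.74 and 2.74 against 4.37, 2.77 and 4.03, the same direction as Cd200. The 8 measured B cell markers averaged 2.55 to 2.57 in the double-positive and 2.57 to 2.61 in the CD31+ arrays, and the 9 T cell markers 3.18 to 3.38 and 3.40 to 3.43, with Cd79a, Blk, Cd22, Cd3e, Cd3g and Cd6 near the floor throughout. Limma called 0 of either list (1.06% of all genes higher and 0.225% lower). Without adjustment, at p under 0.05, 0 B cell markers were called. Of the T cell markers 1 was higher and 1 lower at that threshold (14.4% and 2.44% of all genes). Cd8a was bright at some of its 5 probe sets only. The brightest had 8.50, 8.83 and 7.79 against 9.60, 9.38 and 9.34, lower in the double-positive arrays without overlap, as Cd200 was. The difference there was -1.07 (limma adjusted p = 0.364, or 0.0345 with the filter), and another bright probe set differed by -0.73. Both carry the suffix x, which marks probes that may also match other transcripts. The remaining probe sets of Cd8a were dim, with no value above 3.56, and 1 of them had 2.39 on all 6 arrays. The 10 reticular cell markers averaged 4.67 to 4.98 and 4.55 to 5.37. Of them 2, Postn and Thy1, passed as higher and 0 as lower (1.06% and 0.225% of all genes). Without adjustment 3 were higher and 4 lower at p under 0.05 (14.4% and 2.44% of all genes). The counts were 3 and 3 with the filter (36.0% and 4.34% of the kept genes) and 0 and 0 with the block. Those in the direction of Cd200 were Col3a1 (-3.15), Col1a2 (-3.11), Pdgfrb (-2.92) and Pdgfra (-1.41), given as differences. Col1a2 and Pdgfrb reached 5 on CD31+ arrays only, so the filter kept them through that group. The 9 blood endothelial markers averaged 4.81 to 5.21 and 8.39 to 8.91. The part of these cells in the values of Cd200, Cd40 and Cd274 was not tested.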

How the data were processed

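RNA of 6 sorted samples was measured on GeneChip arrays of the mouse genome. The deposited values are relative log2 abundances that the authors obtained with GCRMA in Bioconductor, after a check of the arrays by pairwise reproducibility plots. Versions are not given in the sources used here. GCRMA sets weak probe sets to a common floor, so small differences there cannot be seen. The number of arrays limits the precision.

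Symbols came from the platform table, updated through gene IDs to RefSeq, and 34741 of 34945 probe sets of 1 gene matched. Limma 3.58.1 (R 4.3.3, lmFit and eBayes) was run without filter or block, as the study's methods state no such step, with Benjamini-Hochberg adjustment over 45037 probe sets. Genes were called if any of their own probe sets passed 5% FDR, and levels are those of the brightest by mean. Residual degrees of freedom were 4. The labels call the replicates biological. The test was checked on simulated data. Named were all members, the genes of each list that passed or had the smallest adjusted p, and a few others chosen after their values were seen. The members and lists were chosen with earlier results of these data known.

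Arrays with the same replicate number deviated together from their group means (r = 0.341, 0.475 and 0.418 over 5764 bright probe sets). For different numbers r was -0.405 to 0.0566. The series describes the samples as paired, so the numbers were taken to pair the arrays. Standard errors, intervals and adjusted p values are from fits without this pairing unless the block is named. Alternatives were the replicate block, the filter on dim probe sets, centring, their combinations, eBayes with trend and robust, array weights, probe sets averaged per gene, 1% FDR and each array left out. Leaving out both arrays numbered 2, on which the control for B1 repeats was bright (12.84 and 12.28, against 7.47 to 8.11), was added after the data were seen. Listed genes without a probe set of their own in the table used, such as Tigit, were not analysed here. Plots used matplotlib 3.10.9 (Python 3.11.15).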

Additional observations from a re-analysis of the deposited data

How the results depend on the processing

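Over all probe sets limma called 0 ligand genes higher and 0 lower (1 and 1 without adjustment, at p under 0.05), and this held with the replicate block, eBayes with trend and robust, array weights, 1% FDR and without both arrays numbered 2. The filter, alone or with the replicate block, gave 1 higher (Cd40) and 1 lower (Cd200), and with probe sets averaged per gene likewise 1 and 1, at 0.80 for Cd40. Centring after the filter gave 0 higher and 1 lower. Centring over all probe sets gave 1 higher and 9 lower, with Cd40 among both through different probe sets, because it also shifts values held at the floor, and turned the sign of Pdcd1lg2 to -0.67. Shares of all genes called were counted only for the fit without filter or block, the replicate block and the filtered fits. Counts under other settings therefore cannot be read as a result about the ligands. Without any 1 array 0 to 1 ligand genes were higher and 0 to 1 lower, these being Cd274 without double-positive replicate 3 and Cd86 without CD31+ replicate 1. The difference of Cd200 ran from -2.47 to -2.03 and that of Cd40 from 0.86 to 1.06. In the members the sign turned for dim genes only. With each array left out, Cd80 ran from -0.25 to 0.13 (above 0 without double-positive replicate 1 and, at 0.05, without CD31+ replicate 3), Cd276 from -0.13 to 0.013 (above 0 without CD31+ replicate 3) and Lgals9 from -0.040 to 0.012 (above 0 without double-positive replicate 2 and, at 0.0097, CD31+ replicate 2). Lgals9 was at 0.0016 with array weights and 0.037 without both arrays numbered 2. Of 73 measured genes in the 6 lists of related genes, 3 were higher and 1 lower (1.06% and 0.225% of all genes). The counts were 0 and 0 with the replicate block, at 1% FDR and without both arrays numbered 2, 9 and 2 with the filter, whether or not blocked, 8 and 3 when filtered arrays were centred, 8 and 57 with centred arrays, and 3 and 2 with probe sets averaged. Of the 11 called with the filter, Entpd1 and Nectin3 reached 5 in 1 group only. Clec4g, Nectin2 and Jak1 reached 5 on 4 arrays, which included all 3 double-positive ones. Calls of these genes with the filter carry that choice. Without any 1 array the counts of listed genes were 1 to 3 higher and 0 to 1 lower. The count was 1 higher without double-positive replicate 3 or any CD31+ array, and 0 lower without any array but CD31+ replicate 3. The causes of these changes were not tested.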
